A study of Mus musculus with 13 samples.

Results

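Embryoid bodies are aggregates of embryonic stem cells (ESC) that differentiate in culture. The comparison described here measures a sorted fraction of them at day 7 from the whole, unsorted stem cell population. It sets the 2 arrays of day 7 embryoid body cells without the Stella reporter against the 2 arrays of unsorted ESC, chosen by sample title, which are 4 of the 13 arrays of the series. All cells are mouse and derive, by their labels, from stem cells that carry a green fluorescent protein (GFP) reporter of Stella, the protein made by Dppa3, a gene of germ cells and of some stem cells. Day and sort differ together between the groups, so their parts in a difference cannot be told apart. The unsorted ESC (n = 2) were not sorted on the reporter, whereas the day 7 Stella-negative cells (n = 2) are the reporter-negative fraction of embryoid bodies and are labelled as cells other than germ cells. Beside them the series holds 3 arrays of ESC sorted as Stella-negative, 2 of ESC sorted as Stella-positive and 4 of day 7 Stella-positive cells, which the labels call germ cells made in culture. The labels give no treatment, sex, passage, feeder layer or separate cultures for these samples, so p-values measure the spread between arrays, which may be technical.

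Stem cells hold a transcription factor network, with Pou5f1, Sox2 and Nanog at its centre, that keeps them undifferentiated. In an embryoid body the outer cells form an endoderm like that of the yolk sac, which secretes carrier proteins such as alpha-fetoprotein, and the inner cells give rise to mesoderm, including primitive red cells, vessels and beating heart muscle. Stem cells are often grown on a layer of embryonic fibroblasts, which make collagens and matrix proteases of their own.

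The largest rises included embryonic globin and yolk sac carrier genes, and 4 promoters of such genes are shown because motifs of the factors that act on these cell types can be looked for in them. Each runs 5′ to 3′ from 250 bases before to 50 bases after the annotated start, in the RefSeq annotation of build GRCm38.p6. Capitals mark motifs searched on both strands. The first was AGATAA and the next was TGATAA, both bound by GATA factors. The others were the CCAAT box, the CACCC box that Klf factors bind, the TATAAA box of the core promoter, and GTTAAT, the core of sites for hepatocyte nuclear factor 1.
Hbb-y, the embryonic epsilon-y globin, chr7:103853158-103853457, minus strand: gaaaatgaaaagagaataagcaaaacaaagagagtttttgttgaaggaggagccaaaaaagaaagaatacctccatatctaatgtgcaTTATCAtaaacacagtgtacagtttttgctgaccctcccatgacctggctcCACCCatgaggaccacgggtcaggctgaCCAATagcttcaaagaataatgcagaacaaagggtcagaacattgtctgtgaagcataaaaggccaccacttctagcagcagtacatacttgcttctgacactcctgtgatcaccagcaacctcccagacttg
Hba-x, the embryonic zeta globin, chr11:32276350-32276649, plus strand: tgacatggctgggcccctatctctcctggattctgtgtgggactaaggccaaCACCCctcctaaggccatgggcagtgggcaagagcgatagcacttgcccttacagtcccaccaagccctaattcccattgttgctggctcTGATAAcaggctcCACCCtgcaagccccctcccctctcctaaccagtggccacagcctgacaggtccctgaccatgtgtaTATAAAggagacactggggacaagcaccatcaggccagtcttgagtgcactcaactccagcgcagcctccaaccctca
Afp, alpha-fetoprotein, chr5:90490464-90490763, plus strand: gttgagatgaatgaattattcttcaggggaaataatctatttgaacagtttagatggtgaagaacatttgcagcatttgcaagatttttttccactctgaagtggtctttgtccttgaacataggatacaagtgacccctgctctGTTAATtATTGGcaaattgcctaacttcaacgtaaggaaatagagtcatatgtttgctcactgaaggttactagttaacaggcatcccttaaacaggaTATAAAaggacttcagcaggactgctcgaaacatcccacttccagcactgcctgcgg
Apoa1, apolipoprotein A-I, chr9:46228380-46228679, plus strand: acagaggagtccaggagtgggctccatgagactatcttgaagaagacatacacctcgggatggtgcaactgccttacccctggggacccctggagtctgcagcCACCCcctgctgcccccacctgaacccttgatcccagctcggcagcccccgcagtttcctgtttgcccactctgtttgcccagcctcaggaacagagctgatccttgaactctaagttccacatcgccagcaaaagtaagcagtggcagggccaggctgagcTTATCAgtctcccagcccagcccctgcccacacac
TGATAA was present in the Hbb-y, Hba-x and Apoa1 windows, on the minus strand in Hbb-y and Apoa1, and in 9.05% of 32851 such windows. CACCC was present in the same 3 windows and in 57.5% of all windows. GTTAAT was present in the Afp window and in 7.10% of all windows, and CCAAT lay close to it there on the opposite strand. CCAAT was also present in the Hbb-y window and in 37.4% of all windows. TATAAA was present in the Hba-x and Afp windows and in 13.6% of all windows, whereas AGATAA, present in 11.2%, was in none of the 4. A match describes letters in the window and says nothing of binding.

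Signals are given as scaled signal, the authors' linear MAS5 signal (the Affymetrix software's summary of a probe set) after each array was brought to a common trimmed mean of 105.2, with 2% of values trimmed from each end. Differences are on the log2(scaled signal + 10.5) scale, which understates the change of dim genes, and their errors are standard errors (SE) from limma. A difference was called where limma's adjusted p, by Benjamini-Hochberg over all 30023 probe sets tested, was under 0.05. With 2 arrays against 2, an exact permutation test cannot go below p = 0.333 for a single gene, so the calls rest on the spread that limma shares across 13 arrays and across genes.

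The day 7 cells differed widely from unsorted ESC. Of 14007 genes tested, 1058 were higher in day 7 cells and 1120 were lower, which is 7.55% and 8.0% of the genes. Among probe sets, 1871 of 30023 were higher (6.23%) and 2289 were lower (7.62%). Called genes that also changed at least 2-fold made up 6.48% of genes upward and 5.34% downward. All called genes had arrays that did not overlap between the groups, but so did many others, since the groups did not overlap for 36.7% of all genes in the upward direction and 26.0% in the downward direction. The difference depended on single arrays: probe sets called higher and lower numbered 538 and 960 without day 7 array 1, 632 and 1234 without day 7 array 2, and 656 and 1013 without unsorted ESC array 2, while 1297 and 1643 were called without unsorted ESC array 1.

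Several array properties moved with the comparison. The actin 3′ to 5′ signal ratio, a measure of RNA degradation and incomplete labelling, was 5.48 and 5.85 on the day 7 arrays and 1.23 and 1.18 on the unsorted ESC arrays. The day 7 arrays were also dimmer before scaling, with trimmed means of 51.4 and 63.4 against 80.8 and 78.1. With the actin ratio in the model, 866 probe sets were called higher and 651 lower, among them 700 of the original 4160. The part of RNA quality in the differences was not tested further. Both unsorted ESC arrays were hybridised on a day of their own and came from a chip lot of their own, and all day 7 arrays shared another day and lot, so group, hybridisation day and chip lot cannot be told apart.

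**Figure D1:**
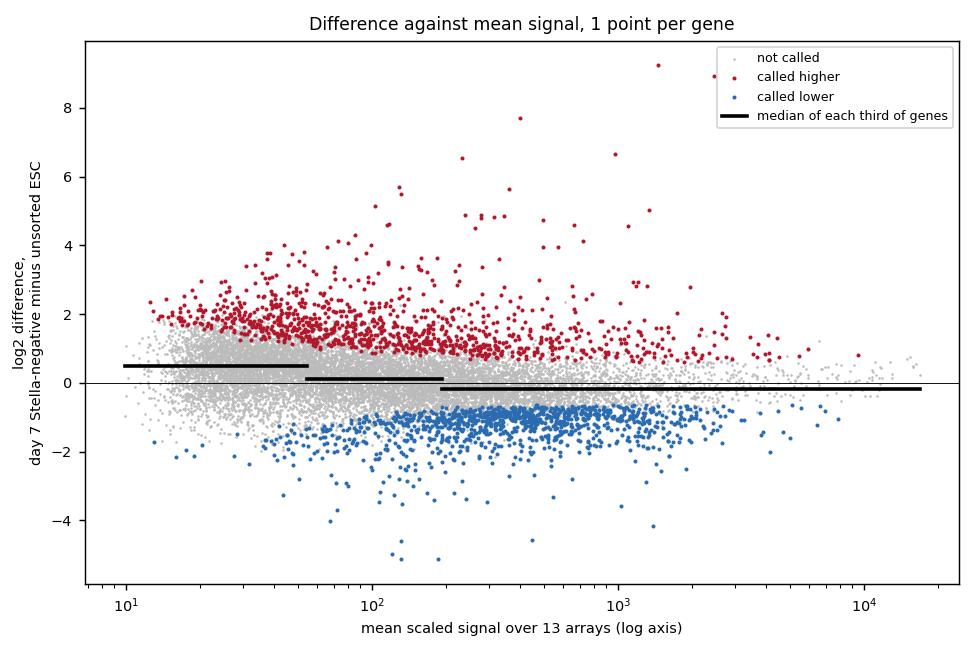
Log2 difference of day 7 Stella-negative cells minus unsorted ESC (vertical axis) against the mean scaled signal over 13 arrays (horizontal, log axis), 1 point per gene, with called genes in red (higher) and blue (lower). Black bars give the median difference of the dimmest, middle and brightest 4669 genes, which runs from 0.50 among the dimmest through 0.12 to -0.19 among the brightest.

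The share of rises also followed brightness and scaling. The median difference of all genes was 0.14, and by mean signal it was 0.50 in the dimmest 4669 genes, 0.12 in the middle ones and -0.19 in the brightest. Among the brightest genes 7.99% were higher and 17.9% lower, and among the dimmest 6.28% were higher and 0.835% lower. Over the probe sets tested, centring the arrays on their medians moved the median difference from 0.15 to -0.31 and the higher share of probe set calls from 45.0% to 12.4%. A difference of a gene or list is therefore best read against the median of all genes and that of genes of like brightness.

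The markers proposed for the cells labelled day 7 Stella-negative read high in them, but they were chosen with earlier results of these data known. Afp, the main serum protein of yolk sac and fetal liver, read 6476 and 6664 on the day 7 arrays and 0.289 and 0.497 on the unsorted ESC arrays, a log2 difference of 9.24 ± 1.49 (SE, n = 2 and 2, limma adjusted p = 0.000777). Ttr, which carries thyroid hormone and retinol-binding protein, read 11349 and 12504 against 11.1 and 16.7, a difference of 8.94 ± 1.55 (adjusted p = 0.00126). Dlk1, an imprinted membrane ligand of fetal tissues, read 1713 and 1675 against 39.3 and 59.8, a difference of 4.85 ± 0.50 (adjusted p = 3.33e-05). For each of these genes the arrays of the groups were far apart. Afp and Dlk1 are not particular to this fraction. Day 7 Stella-positive cells were also higher than unsorted ESC for both, by 5.05 and 1.57 (limma adjusted p = 0.0257 and 0.0379). The reporter's own gene, Dppa3, read 74.6 and 101 in day 7 Stella-negative cells and 300 and 324 in unsorted ESC, and fell by 1.72 ± 0.30 on the log2 scale (adjusted p = 0.00128). On the 4 arrays of day 7 Stella-positive cells Dppa3 read 807, 728, 1078 and 1138, above both day 7 Stella-negative arrays. Both day 7 fractions were sorted on the Dppa3 reporter, so these Dppa3 differences were selected for and are no independent result.

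**Figure D2:**
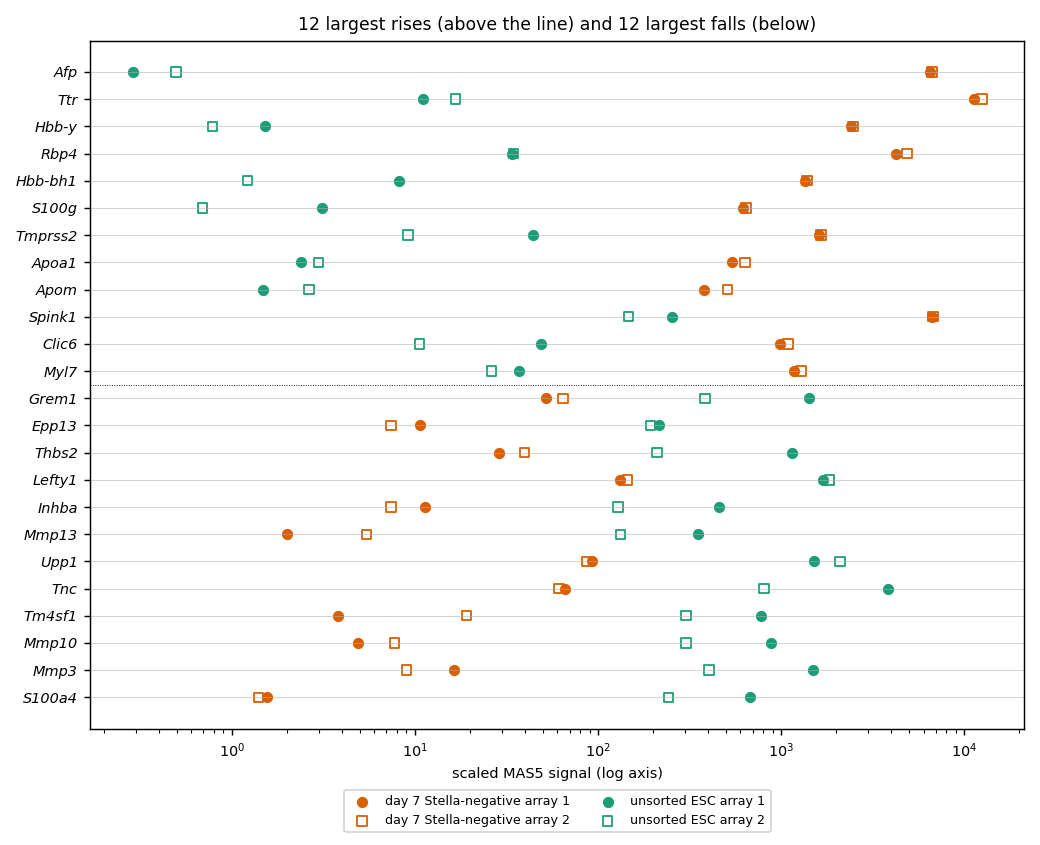
Scaled signal (log axis) on the 2 day 7 Stella-negative arrays (orange) and the 2 unsorted ESC arrays (green) for the 12 genes with the largest rises and the 12 with the largest falls. The day 7 arrays lie close together for the rises, whereas for 10 of the 12 falls unsorted ESC array 1 lies above array 2.

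The 12 largest rises were Afp, Ttr, Hbb-y, Rbp4, Hbb-bh1, S100g, Tmprss2, Apoa1, Apom, Spink1, Clic6 and Myl7, with log2 differences from 9.24 down to 4.89. Afp, Ttr, Rbp4, Apoa1 and Apom belong to the list of secreted yolk sac and liver proteins, Hbb-y and Hbb-bh1 are embryonic globins and Myl7 is an atrial myosin light chain. On both unsorted ESC arrays 6 of the 12 read below the constant of 10.5, so the size of those differences depends on that constant. S100g, a calcium-binding protein of absorptive epithelia, read 622 and 644 in day 7 cells and 3.10 and 0.692 in unsorted ESC. Tmprss2, a membrane serine protease of epithelia, read 1621 and 1651 against 44.2 and 9.19. Spink1, a secreted trypsin inhibitor, read 6670 and 6748 against 255 and 147, so it was already well measured in ESC, and it rose by 5.04 ± 1.11 on the log2 scale (limma adjusted p = 0.00671). Clic6, an intracellular chloride channel protein, read 990 and 1091 against 48.6 and 10.6.

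The 12 largest falls were S100a4, Mmp3, Mmp10, Tm4sf1, Tnc, Upp1, Mmp13, Inhba, Lefty1, Thbs2, Epp13 and Grem1, with log2 differences from -5.12 to -3.45. Among them, Lefty1, an inhibitor of Nodal, is a stem cell gene, whereas Mmp3, Mmp10, Mmp13, Tnc, Thbs2, Inhba and Grem1 encode matrix proteases, matrix proteins and secreted factors that fibroblasts are known to make. Mmp3, stromelysin 1, read 16.3 and 9.01 in day 7 cells and 1489 and 404 in unsorted ESC, and fell by 5.11 ± 0.65 (limma adjusted p = 0.000124). S100a4, a calcium-binding protein of fibroblasts, read 1.55 and 1.40 against 675 and 243. Tnc, the matrix protein tenascin C, read 66.3 and 61.2 against 3818 and 806, and fell by 4.57 ± 1.0 (adjusted p = 0.00639). On unsorted ESC array 1 these genes read several times higher than on array 2, and the same order held for 10 of the 12 falls. The exceptions were Upp1, a uridine phosphorylase, at 1509 and 2100, and Lefty1, at 1698 and 1842.

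Gene lists were used to describe the comparison by function. The 30 lists held 586 genes, of which 495 were tested, 54 were too dim and 37 had no probe set with a single symbol. A gene that is high only in day 7 cells passes the brightness filter through those same arrays, so the counts over tested members describe and do not support a direction. Where a list below had 0 members lower, limma gave at an unadjusted p under 0.05 likewise 0 in the yolk sac, endoderm, heart, lateral plate, blood, vessel, epithelial and primed epiblast lists, 1 in the macrophage list, 1 in the Hox list, 3 in the imprinted list and 2 each in the BMP and trophoblast lists. Where 0 were higher, it gave 0 in the pluripotency and replication lists and 2 in the chromatin list. Over all 30023 probe sets, 8725 had an unadjusted p under 0.05 in either direction. The counts are to be read against the 7.55% of all genes that were higher and the 8.0% that were lower. In cell mixtures such as these, fewer cells of a type and less RNA per cell cannot be told apart.

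**Figure D3:**
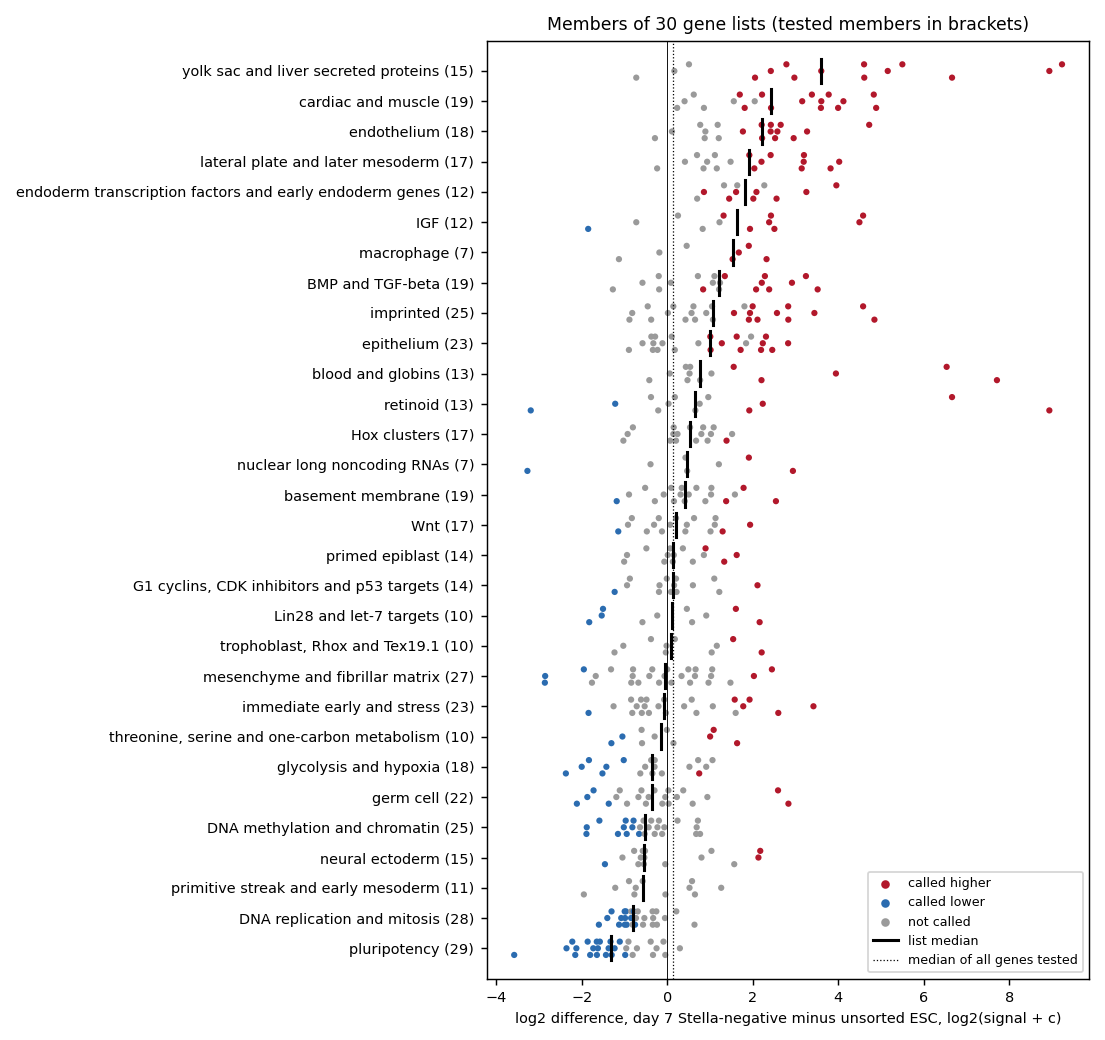
Log2 difference of day 7 Stella-negative cells minus unsorted ESC for each tested member of 30 gene lists, ordered by list median (black bars), with members called higher in red, called lower in blue and not called in grey. The list of secreted yolk sac and liver proteins has the highest median (3.60) and the pluripotency list the lowest (-1.33), and the dotted line is the median of all genes (0.14).

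Secreted proteins of yolk sac and liver formed the list with the highest median, 3.60. Of 15 tested members of 22, 12 were higher in day 7 cells and none was lower. Rbp4, the plasma carrier of retinol, read 4223 and 4866 in day 7 cells and 34.1 and 34.6 in unsorted ESC, a rise of 6.66 ± 0.99 (limma adjusted p = 0.000419). Apoa1, the main protein of high-density lipoprotein, read 542 and 637 against 2.39 and 2.99, a rise of 5.50 ± 1.08 (adjusted p = 0.00308). Cubn and Amn, which together form the endocytic receptor of visceral endoderm, rose by 4.61 and 2.79. The members not called were Alb at 0.51, Lrp2 at 0.17 and Apoe at -0.72 on the log2 scale. With the actin ratio in the model 8 of the 15 were called.

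Transcription factors and other early genes of endoderm were higher in 8 of 12 tested members and lower in none, with a median of 1.83. Dab2, an endocytic adaptor needed by visceral endoderm, read 2287 and 2585 against 212 and 101, a rise of 3.96 ± 0.47 (limma adjusted p = 8.6e-05). Hnf4a, a nuclear receptor that drives visceral endoderm and liver genes, read 248 and 244 against 25.97 and 9.29, a rise of 3.26 ± 0.64 (adjusted p = 0.00312). Foxa1 rose by 2.56, and Gata4, which acts in endoderm and heart, rose by 2.09. These genes were not evenly low in the unsorted ESC: 10 of the 12 read higher on array 1 than on array 2, with a median excess of 0.78 on the log2 scale. Without unsorted ESC array 2, without day 7 array 1 or without day 7 array 2, only 2 of the 12 were called, and 3 were called with arrays centred on their medians or with hybridisation run as a random block.

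Basement membrane genes, which parietal and visceral endoderm express strongly, were higher in 3 of 19 tested members and lower in 1. Col4a1, a chain of type IV collagen, read 2025 and 2166 against 635 and 191, a rise of 2.54 ± 0.42 (limma adjusted p = 0.000821), and Col4a2, its partner chain, rose by 1.79. Agrn, agrin, rose by 1.38, while Nid2, nidogen 2, fell by 1.18. Without unsorted ESC array 1, 6 members were higher, without unsorted ESC array 2, 1 was, and with the actin ratio in the model 0 were. Of the epithelial list, 10 of 23 tested members were higher and none was lower. Krt8 and Krt18, the paired keratins of simple epithelia, rose by 2.46 and 2.83, and Krt18 read 1748 and 1784 against 621 and 88.5, so the unsorted ESC arrays differed widely between themselves. Cdh1, E-cadherin, present in stem cells and epithelia alike, had a difference of -0.23 and Epcam one of 0.18, and neither was called. Only 3 epithelial members were called higher without day 7 array 1 or without day 7 array 2, and 3 with arrays centred on their medians.

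Heart and muscle genes were higher in 13 of 19 tested members and lower in none, with a median of 2.43. Myl7, the atrial regulatory light chain, read 1177 and 1286 in day 7 cells and 37.3 and 26.2 in unsorted ESC, a rise of 4.89 ± 0.97 (limma adjusted p = 0.00318). Actc1, cardiac actin, read 1322 and 1470 against 51.5 and 28.7, a rise of 4.83 ± 0.67 (adjusted p = 0.000240). Myocd, a coactivator of muscle genes, rose by 4.12, and Tnnt2, cardiac troponin T, rose by 3.998 from 1.24 and 2.62 to 179 and 197. The groups did not overlap in the upward direction for 18 of the 19 members and for 36.7% of all genes. Members high only at day 7 pass the brightness filter through those same arrays. The count was 7 without day 7 array 1, and 8 without day 7 array 2 or without unsorted ESC array 1.

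Later mesoderm genes and primitive streak genes were described as separate lists. Among the lateral plate and later mesoderm genes 9 of 17 tested members were higher and none was lower, with a median of 1.92. Hand2, a factor of heart and limb, read 503 and 532 against 29.9 and 15.6, a rise of 4.02 ± 0.63 (limma adjusted p = 0.000606). Isl1, a factor of second heart field progenitors, read 220 and 263 against 2.73 and 13.4, a rise of 3.82 ± 0.58 (adjusted p = 0.000462). Foxc2 rose by 3.20 and Meis2 by 3.19. Of 11 tested genes of the primitive streak and early mesoderm limma called none in either direction. Only 7.55% of all genes were higher and 8.0% lower, so 0 calls among 11 says little. At an unadjusted p under 0.05, 1 streak gene was higher and 2 were lower, beside 8725 of all 30023 probe sets in either direction. The differences of the 11 genes ran from -1.95 for Lhx1 to 1.26 for Mesp1. Brachyury was not analysed here. With the actin ratio in the model 5 of the lateral plate genes were called. Whether these lists differ from each other was not tested.

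The blood genes called higher were led by embryonic globins. Hbb-y read 2406 and 2470 in day 7 cells and 1.51 and 0.782 in unsorted ESC, a rise of 7.71 ± 0.89 (limma adjusted p = 7e-05). Hbb-bh1, the other embryonic beta-like globin, read 1344 and 1387 against 8.18 and 1.22, a rise of 6.54 ± 0.72 (adjusted p = 5.32e-05). Hba-x read 313 and 317 against 17.4 and 5.43, a rise of 3.95 ± 0.65 (adjusted p = 0.000897). The 2 day 7 arrays differed by little for these globins, whose promoters are shown above for Hbb-y and Hba-x, and near-identical globin sequences may share probes. Of 13 tested blood genes 5 were higher, the other two being Tal1 at 2.21 and Runx1 at 1.55, both early blood transcription factors. Hba-a1, an adult alpha globin, had a difference of 0.06 and the erythroid factors Klf1 and Gata1 had differences of 0.44 and 0.47, none of them called. Without day 7 array 1, day 7 array 2 or unsorted ESC array 1, 3 blood genes were called.

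Vessel genes were higher in 11 of 18 tested members and lower in none, with a median of 2.21. Aplnr, the apelin receptor, read 2354 and 2577 against 208 and 29.4, a rise of 4.73 ± 1.33 (limma adjusted p = 0.0253). Ramp2, which completes the adrenomedullin receptor, read 569 and 534 against 44.1 and 51.5, a rise of 3.27 ± 0.52 (adjusted p = 0.00065). Nrp1, a co-receptor of vascular endothelial growth factor, rose by 2.96, and Cdh5, the cadherin that defines endothelium, rose by 2.65 from 17.4 and 19.9 to 166 and 179. Pecam1, expressed by both endothelium and stem cells, read 67.0 and 95.4 in day 7 cells and 112 and 89.5 in unsorted ESC and was not called. The vessel count was 7 without day 7 array 1 or day 7 array 2 and 6 without unsorted ESC array 2. Macrophage genes were higher in 4 of 7 tested members, namely Csf1r at 2.32, Tyrobp at 1.91, C1qb at 1.67 and Adgre1 at 1.53, while Cd68 had a difference of -1.13. Csf1r, the receptor of macrophage growth factor, read 416 and 381 against 83.2 and 60.6. The macrophage count was 1 with arrays centred on their medians, with quantile normalization, with no filter, with the random block and with the actin ratio, under which C1qb had a difference of -0.46. It was also 1 without day 7 array 1, unsorted ESC array 2, or Stella-negative ESC array 1 or 2.

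Of 15 tested neural genes 2 were higher (13.3%) and 1 was lower (6.67%), beside 7.55% and 8.0% of all genes. Sox11 read 790 and 627 against 109 and 199, a rise of 2.18 ± 0.40 (limma adjusted p = 0.00194), and Pax3, a factor of dorsal neural tube and of muscle progenitors, rose by 2.13. Stmn2, a tubulin-binding protein of neurons, read 297 and 362 against 849 and 992, and fell by 1.46 ± 0.28 (adjusted p = 0.00237). No neural gene was higher (0) with the actin ratio in the model. The defining markers Pax6, Sox1 and Tubb3 were not called and read at most 55.7 on the day 7 arrays. Of 17 tested Hox genes out of 39, only Hoxa11 was called, at 82.1 and 111 against 31.3 and 28.8, a rise of 1.39 ± 0.38 (adjusted p = 0.0223), and it was not called without day 7 array 1, day 7 array 2 or unsorted ESC array 2. Of 10 tested trophoblast genes Plet1 and Plac1 were higher, at 2.21 and 1.54, and neither was called with those 3 arrays left out in turn.

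**Figure D4:**
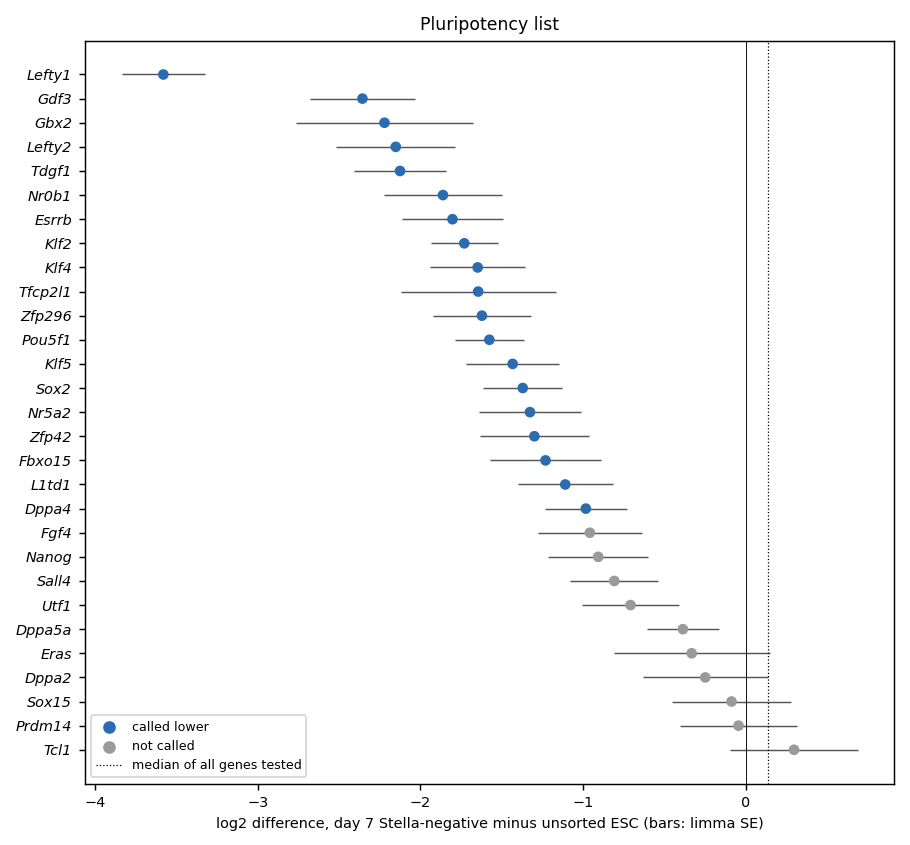
Log2 difference of day 7 Stella-negative cells minus unsorted ESC for the 29 pluripotency genes, with limma standard errors as bars, called genes in blue and others in grey, and the median of all genes dotted. Differences run from -3.58 for Lefty1 to 0.30 for Tcl1, and 19 of the 29 were called lower.

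Pluripotency genes formed the list with the lowest median, -1.33, and 19 of its 29 members were lower in day 7 cells and none was higher. Pou5f1, the POU factor at the centre of the network, read 290 and 309 in day 7 cells and 745 and 1119 in unsorted ESC, and fell by 1.58 ± 0.21 (limma adjusted p = 0.000201). Sox2, its partner, read 1246 and 1350 against 3433 and 3311, and fell by 1.37 ± 0.24 (adjusted p = 0.0015). Zfp42, a zinc finger gene used as a stem cell marker, read 958 and 1070 against 2550 and 2467, and fell by 1.30 ± 0.34 (adjusted p = 0.0166). Both day 7 arrays lay below both unsorted ESC arrays for these genes, and all of them remained well above the added constant at day 7.

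The deepest falls among pluripotency genes included those of the Nodal pathway. Lefty1 read 131 and 145 in day 7 cells and 1698 and 1842 in unsorted ESC, and fell by 3.58 ± 0.26 (limma adjusted p = 9.25e-07). Gdf3, a ligand of the same family, fell by 2.36, Lefty2 by 2.15, and Gbx2, a homeobox factor of stem cells, by 2.22. Klf4 read 361 and 394 against 1364 and 1064, and fell by 1.65 ± 0.29 (adjusted p = 0.00147). Nanog read 873 and 940 against 1684 and 1732, a difference of -0.91 ± 0.31 that missed the threshold (adjusted p = 0.0577), although the arrays did not overlap. The members at the other end were Tcl1 at 0.30, Prdm14 at -0.05 and Sox15 at -0.09, none called. The count of 19 was 11 without day 7 array 1 and 4 with the actin ratio in the model, where the list's median was -0.57.

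Genes of the primed epiblast, the state between naive stem cells and the germ layers, were higher in 3 of 14 tested members and lower in none. They were Cldn6 at 1.63, Sall2 at 1.33 and Sox4 at 0.90, and none of them was called higher without day 7 array 1, day 7 array 2 or unsorted ESC array 2. Fgf5, the usual marker of that state, read 113 and 90.7 in day 7 cells and 163 and 60.1 in unsorted ESC, so the groups overlapped. Of 22 tested germ cell genes 2 were higher (9.09%) and 4 lower (18.2%), beside 7.55% and 8.0% of all genes. Dazl, an RNA-binding protein of germ cells, read 155 and 193 against 3.93 and 35.3, a rise of 2.84 ± 0.45 (limma adjusted p = 0.000646). Stra8, a gene induced by retinoic acid before meiosis, read 94.2 and 88.4 against 4.37 and 8.62, a rise of 2.59 ± 0.46 (adjusted p = 0.00146). Ifitm3, a membrane protein of early germ cells and of many other cells, fell by 2.11, Tdrd12 by 1.87 and Dppa3 by 1.72. The fall of Dppa3, counted among the 4, was selected for by sorting the day 7 cells as reporter-negative. Ddx4, a later germ cell gene, read 32.9 and 32.4 against 45.9 and 55.4 and was not called. Neither Dazl nor Stra8 was called with the actin ratio in the model.

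Dazl and Stra8 also separated the sorted day 7 fractions, since both were higher again in Stella-positive cells than in the Stella-negative cells described here, by 1.66 and 1.95 (limma adjusted p = 0.00831 and 0.00352). The presence of cells of the germ line in the Stella-negative fraction was not tested.

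Many cell cycle genes were lower in day 7 cells. Of 28 tested genes of DNA replication and mitosis 14 were lower and none was higher, with a median of -0.79. Ccnb2, a mitotic cyclin, read 301 and 257 against 791 and 944, and fell by 1.599 ± 0.20 (limma adjusted p = 0.000127). Bub1, a spindle checkpoint kinase, fell by 1.40, Plk1 by 1.30 and Mcm6, a subunit of the replicative helicase, by 1.13. In unsorted ESC only 1 of these 28 genes read higher on array 1 than on array 2. The count of 14 was 4 without unsorted ESC array 2, 5 without day 7 array 1, 7 without day 7 array 2 and 1 with the actin ratio in the model. Among cyclins and inhibitors of G1, Cdkn1c, an imprinted inhibitor of cyclin-dependent kinases, read 326 and 493 against 84.2 and 85.2, a rise of 2.11 ± 0.41 (adjusted p = 0.00272), and Ccnd1, cyclin D1, fell by 1.23. Of these, Ccnd1 was not called without day 7 array 1, day 7 array 2 or unsorted ESC array 2.

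Chromatin and DNA methylation genes were lower in 10 of 25 tested members and higher in none. Dnmt3l, the catalytically inactive partner of the methyltransferases that set DNA methylation, read 128 and 190 against 487 and 758, and fell by 1.89 ± 0.33 (limma adjusted p = 0.00129). Prmt5, an arginine methyltransferase, read 235 and 347 against 980 and 1196, and fell by 1.88 ± 0.24 (adjusted p = 0.000124). Eed, a subunit of Polycomb repressive complex 2, fell by 1.59 and Ehmt2, which methylates histone H3 at lysine 9, by 1.15. Ezh2 at -0.55 and Suz12 at -0.12, subunits of the same complex, were not called. The list's further Polycomb genes, Ezh1, Jarid2, Cbx2 and Cbx7, are not described here. In unsorted ESC only 1 of the 25 genes read higher on array 1 than on array 2. The count of 10 was 5 without unsorted ESC array 2 or day 7 array 1, 6 without day 7 array 2 and 2 with the actin ratio in the model.

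Imprinted genes were higher in 11 of 25 tested members and lower in none, with a median of 1.07. Igf2, the fetal growth factor, read 2885 and 3053 against 160 and 80.2, a rise of 4.58 ± 0.68 (limma adjusted p = 0.000435). Asb4, read at 170 and 262 against 11.3 and 8.504, rose by 3.44, and Plagl1, a zinc finger regulator of other imprinted genes, rose by 2.83. The noncoding RNA Meg3, imprinted opposite to its neighbour Dlk1, read 7696 and 8077 against 2253 and 1939, a rise of 1.91 ± 0.28 (adjusted p = 0.000378). The labels give no allele, so the parental origin of these transcripts was not measured. In the growth factor pathway itself 7 of 12 tested members were higher and 1 lower. Igfbp5, a binding protein of the factor, read 1305 and 1342 against 62.6 and 37.3, a rise of 4.50 ± 0.70 (adjusted p = 0.000615), and Igfbp1 and Igfbp4 rose by 2.51 and 2.43, while Igfbp2 fell by 1.85. The count of 7 was 4 without day 7 array 1 or unsorted ESC array 2 and 3 with the actin ratio in the model.

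BMP and TGF-beta genes were higher in 9 of 19 tested members and lower in none, with a median of 1.21. The ligands Bmp2 and Tgfb2 rose by 3.52 and 2.92, and Bmp2 read 588 and 450 against 90.8 and 10.2. The target Id2, an inhibitor of differentiation factors, read 774 and 660 against 65.1 and 66.8, a rise of 3.25 ± 0.36 (limma adjusted p = 5.49e-05). Smad6, an inhibitor that the pathway induces, rose by 2.39. Bmp4, another ligand, had a difference of -1.27 and was not called. Of 17 tested Wnt genes the receptors Fzd1 and Fzd2 were higher, at 1.94 and 1.30, and the ligand Wnt7b was lower, at -1.15. Without day 7 array 1 or unsorted ESC array 2, 5 BMP and TGF-beta genes and 1 of the Wnt genes were higher. With the actin ratio in the model 0 Wnt genes were higher, and Wnt7b was not called in 12 of 19 alternatives.

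Retinoid genes were higher in 4 of 13 tested members, including Ttr and Rbp4 from the yolk sac list, and lower in 2. Rarb, a retinoic acid receptor that retinoic acid itself induces, read 164 and 125 against 18.1 and 26.9, a rise of 2.23 ± 0.54 (limma adjusted p = 0.0117). Crabp1, a cytoplasmic carrier of retinoic acid, read 32.9 and 28.6 against 819 and 161, and fell by 3.19 ± 0.66 (adjusted p = 0.00446), and it was another gene far higher on unsorted ESC array 1 than on array 2. Among Lin28 and let-7 target genes Myc and Mycn fell by 1.82 and 1.53, while Arid3a and Hmga2 rose by 2.16 and 1.61. Hmga2, an architectural chromatin protein, read 3192 and 3170 against 1386 and 776. Of 10 tested members in that list 2 were higher and 3 were lower, and 1 was higher and 1 lower without unsorted ESC array 2. Neither retinoid gene that fell was called without unsorted ESC array 1.

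Metabolic genes changed in part. Of 18 tested genes of glycolysis and hypoxia 6 were lower and 1 was higher. Pfkl, a phosphofructokinase, read 184 and 229 against 760 and 1615, and fell by 2.37 ± 0.41 (limma adjusted p = 0.00123). Slc16a3, a lactate exporter, fell by 2.001, Bnip3, a mitophagy receptor induced by hypoxia, by 1.83 and Ldha, lactate dehydrogenase A, by 1.52, and unsorted ESC array 2 read higher than array 1 for each of them. With the actin ratio in the model none of the list was lower, at differences of 0.37 for Bnip3 and 0.21 for Ldha. In serine and one-carbon metabolism Phgdh, the entry enzyme of serine synthesis, read 2408 and 3041 against 1294 and 576, a rise of 1.64 ± 0.30 (adjusted p = 0.00174), Psph rose by 1.09, and Shmt1 and Ahcy fell by 1.31 and 1.05. Other probe sets of Shmt1 were at -2.99, called, and at 0.41 and 0.01, not called. Of the 10 tested genes of that list 3 were higher and 2 lower, and with the actin ratio in the model 0 were in either direction. Without unsorted ESC array 2, 1 was higher and 0 were lower. Without day 7 array 1, 2 were higher and 0 lower. Of 23 tested immediate early and stress genes 5 were higher and 1 lower. The heat shock genes Hspa1a and Hspa1b rose by 3.42 and 2.60, while Fos and Egr1 were at -0.85 and -0.43 and not called. Without day 7 array 1, day 7 array 2 or unsorted ESC array 2 only 1 of the 5 was called. Without unsorted ESC array 2, 2 glycolysis genes were lower.

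Of 7 tested nuclear noncoding RNAs 2 were higher, 1 was lower and 4 were not called. Tug1 read 5231 and 5797 in day 7 cells and 730 and 686 in unsorted ESC, a rise of 2.94 ± 0.43 (limma adjusted p = 0.000407). Neat1, the scaffold of paraspeckles, read 16.5 and 38.5 against 384 and 302, and fell by 3.27 ± 0.57 (adjusted p = 0.00139). The other probe sets of both genes were not called, at -0.61 and 1.13 for Tug1 (adjusted p = 0.144 and 0.0509) and 1.03 for Neat1 (adjusted p = 0.0929). Neat1 was not called with the actin ratio in the model (adjusted p = 0.0507). In the sort, Neat1 was higher by 1.71 in Stella-positive than in Stella-negative day 7 cells (adjusted p = 0.0273). Tug1 read 290, 288, 93.5 and 120 on the Stella-positive day 7 arrays, lower than on either Stella-negative array by a log2 difference of 4.88 (adjusted p = 4.06e-06).

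Of the 30 lists, mesenchyme and fibrillar matrix genes had the median that differed most between unsorted and Stella-negative ESC. Against unsorted ESC 2 of the 27 members, all tested, were higher (7.41%) and 3 were lower (11.1%) in day 7 cells. Of all genes 7.55% were higher and 8.0% were lower. Col3a1, a fibrillar collagen, read 636 and 593 against 162 and 65.4, a rise of 2.45 ± 0.55 (limma adjusted p = 0.00761), and Twist1, a mesenchymal transcription factor, rose by 2.03. Thy1, a surface protein of fibroblasts, read 71.5 and 90.5 against 1320 and 319, and fell by 2.86 ± 0.50 (adjusted p = 0.00134), Dcn, the proteoglycan decorin, read 105 and 63.1 against 911 and 474, and fell by 2.86 ± 0.60 (adjusted p = 0.00501), and Twist2 fell by 1.95. The list's median was -0.06, and it was 0.25 with the actin ratio in the model, 0.40 without unsorted ESC array 1 and -0.78 without unsorted ESC array 2. Neither rise was called without day 7 array 1, day 7 array 2 or unsorted ESC array 2, and 1 of the 3 falls was called without unsorted ESC array 1 or day 7 array 2.

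**Figure D5:**
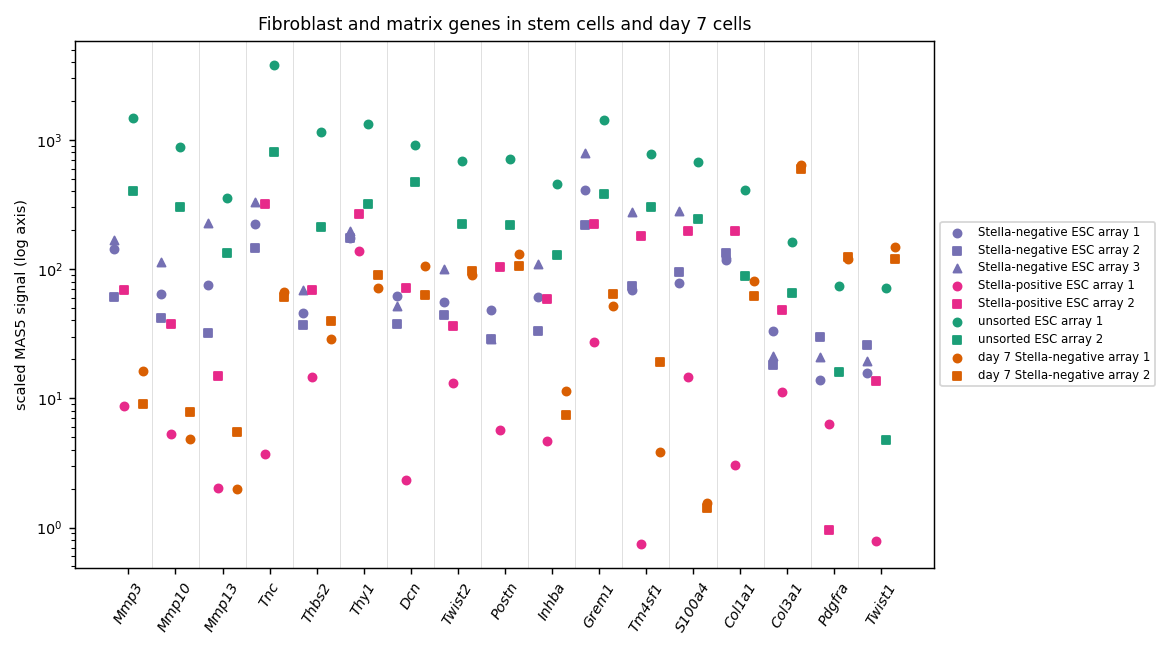
Scaled signal (log axis) of 17 fibroblast and matrix genes on the arrays of Stella-negative ESC (violet), Stella-positive ESC (pink), unsorted ESC (green) and day 7 Stella-negative cells (orange), with the array number given by the marker shape. Unsorted ESC array 1 lies above array 2 for each of these genes.

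These genes read unevenly on the unsorted ESC arrays themselves. All 27 members read higher on unsorted ESC array 1 than on array 2, with a median excess of 1.57 on the log2 scale, whereas the median excess over all genes was 0.02 and the corresponding median of the 27 between the day 7 arrays was 0.10. Summed over the list, the scaled signal was 24904 and 9189 on the unsorted ESC arrays, 8205, 9564 and 9704 on the Stella-negative ESC arrays, 4207 and 8125 on the Stella-positive ESC arrays, and 12056 and 11980 on the day 7 Stella-negative arrays. Of the defining markers, Col1a1 read 406 and 87.7 and Pdgfra 74.1 and 15.9 on the unsorted ESC arrays, and 80.7 and 61.9 and 119 and 124 on the day 7 arrays, neither gene called. The presence of fibroblasts among the unsorted ESC was not tested.

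Stella-negative ESC are the sorted counterpart of the day 7 fraction, and the difference between both baselines was tested directly. Of 14007 genes, 141 were higher (1.01%) and 167 lower (1.19%) in Stella-negative than in unsorted ESC. Among probe sets 281 were higher (0.936%) and 328 lower (1.09%), but without unsorted ESC array 1 these numbers were 16 and 28, without Stella-negative ESC array 1 they were 102 and 131, and without Stella-negative ESC array 2 they were 61 and 82. Of the 27 mesenchyme genes 6 were lower in Stella-negative ESC, Dcn by 3.47, Postn by 3.19, Twist2 by 2.44, Snai2 by 2.41, Zeb1 by 1.83 and Lum by 1.81, and none was higher. The list's median was -1.24 in that comparison, -0.06 for day 7 cells against unsorted ESC and 1.21 for day 7 cells against Stella-negative ESC, where the last 2 share the day 7 arrays. Zeb1, Snai2 and Postn, for example, had day 7 differences of 1.05, 0.54 and -1.67 from unsorted ESC and of 2.89, 2.94 and 1.51 from Stella-negative ESC.

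The matrix genes that led the falls differed in the same way. Mmp3 read 143, 60.4 and 168 on the Stella-negative ESC arrays, and was lower there than in unsorted ESC by 2.66 (limma adjusted p = 0.0289). Mmp10 was lower by 2.75 (adjusted p = 0.0154) and Thbs2, thrombospondin 2, by 3.09 (adjusted p = 0.0158). Thbs2 read 45.5, 36.8 and 69.1 on the Stella-negative ESC arrays, so its day 7 signals of 28.7 and 39.6 gave a difference of -0.43 from that baseline and of -3.51 from unsorted ESC. Tnc had a baseline difference of -2.93 that was not called (adjusted p = 0.108). For the yolk sac, heart, vessel and blood lists limma called none of the members between the baselines. Of all genes only 1.01% were higher and 1.19% lower there, so the absence of calls in these lists says little. At an unadjusted p under 0.05 their members in either direction numbered 1, 0, 2 and 0, beside 4891 of all 30023 probe sets.

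The genes with the largest baseline differences outside matrix genes were read far apart. Susd5 read 459 and 820 in unsorted ESC and from 3.67 to 26.4 on the 3 Stella-negative ESC arrays, a difference of -4.55 (limma adjusted p = 1.17e-05). Myo1f, an unconventional myosin of blood cells, read 445 and 627 in unsorted ESC and from 10.1 to 17.5 in Stella-negative ESC, a difference of -4.52 (adjusted p = 1.93e-05). Prmt1, an arginine methyltransferase, read 185 and 260 in unsorted ESC and 1560, 2096 and 2039 in Stella-negative ESC, a difference of 3.04 (adjusted p = 1.17e-05). Hmox1, heme oxygenase 1, read 37.1 and 37.5 against 705, 574 and 532, a difference of 3.67 (adjusted p = 0.000911). The Stella-positive ESC arrays read like the Stella-negative ones for these genes, with Susd5 at 5.16 and 12.5 and Prmt1 at 2135 and 2467. For Susd5 and Prmt1 the day 7 arrays of both fractions read nearer to unsorted ESC, with Susd5 between 307 and 590 and Prmt1 between 239 and 434. The sorted ESC arrays also differed from all others in hybridisation day and chip lot, so sort, day and lot cannot be told apart here.

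Among the 29 pluripotency genes 1 was called between the baselines, beside 1.01% of all genes higher and 1.19% lower. Pou5f1 read 1886, 1819 and 1912 on the Stella-negative ESC arrays and was higher there than in unsorted ESC by 1.03 (limma adjusted p = 0.0119). Its day 7 difference was therefore -1.58 from unsorted ESC and -2.60 from Stella-negative ESC. At an unadjusted p under 0.05, 1 pluripotency gene was higher and 3 were lower in Stella-negative ESC, beside 4891 of all 30023 probe sets in either direction. Meg3 was lower in Stella-negative than in unsorted ESC by 1.52 (adjusted p = 0.00711), so that its day 7 difference was 1.91 from one and 3.43 from the other.

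Day 7 Stella-positive cells were also compared with the Stella-negative cells. Between the fractions 1434 genes were higher in Stella-positive cells (10.2%) and 1270 lower (9.07%), from 2564 probe sets higher (8.54%) and 2362 lower (7.87%), and this comparison shares the Stella-negative arrays with the one above. Without Stella-negative array 1 these probe sets numbered 837 and 361, and without array 2 they numbered 1255 and 565. The actin 3′ to 5′ ratio was 2.04, 2.17, 4.89 and 5.16 on the Stella-positive arrays, against 5.48 and 5.85 on the Stella-negative arrays. With that ratio in the model 2889 probe sets were higher and 3117 lower. The part of RNA quality in these differences was not tested further. Afp read 2858, 2898, 49.1 and 23.8 on the Stella-positive arrays, below both Stella-negative arrays but above all ESC arrays, and Hbb-y read 152, 159, 17.2 and 0.900. Stella-positive arrays 3 and 4, the dimmest before scaling, read far lower than arrays 1 and 2 for both genes.

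Among the genes that fell from unsorted ESC, Nefh, a neurofilament chain, read 4.08 and 16.1 in Stella-negative day 7 cells, 143 and 125 in unsorted ESC and 118, 61.3, 120 and 182 in Stella-positive day 7 cells. It was higher in the Stella-positive fraction by 2.65 (limma adjusted p = 0.000155). Epp13, an epididymal protein gene, was higher there by 2.45 and Slc27a2, a fatty acid transporter, by 1.47. Of the 29 pluripotency genes 17 were higher in Stella-positive than in Stella-negative day 7 cells and none was lower, and Pou5f1 was higher by 1.72 (adjusted p = 4.94e-05). Against unsorted ESC, the median of that list was -0.28 for Stella-positive and -1.33 for Stella-negative day 7 cells.

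The probe set that stands for a gene affected its value. Taking the median over a gene's probe sets instead moved 35 of the 59 named genes that had several tested probe sets by more than the spread between replicates and left 24 within it. Of 2061 genes with at least 2 tested probe sets and a call, 56 were called in both directions (2.72%). Actb, whose representative probe set read 13250 and 13658 in day 7 cells and 11038 and 11868 in unsorted ESC and was not called, had another probe set that was lower by 1.18 (limma adjusted p = 0.00781). Afp had 5 probe sets with differences from 1.58 to 9.24, of which the smallest was not called. Further probe sets of called genes were not called either, for example Bub1 at 0.25, Mcm6 at -0.48 and Hspa1b at 1.88 and 1.56.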

How the data were processed

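Total RNA was measured on 13 Affymetrix Mouse430_2 arrays, 1 per sample, grouped and numbered by the sample titles. The deposited table holds linear signal intensity per probe set, made by the authors with MAS5 per the submitters' processing notes, with version, target and scaling unstated in these sources. Detection calls were not used. The array description files hold no expression values. They gave chip type, lot, hybridisation run and replicate numbers, which in both groups run in reverse of the titles, so which array of a group is 1 or 2 is uncertain.

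Columns were scaled to the mean of their 2% trimmed means (105.2), 10.5 (1/10 of it) was added and log2 taken. After removal of 64 controls, 30023 of 45037 probe sets exceeded their array's median on at least 2 arrays and were tested. Of the 45037, 34945 had 1 gene symbol, 932 had several and 9160 had none, and 0 were outdated. The brightest probe set with a single symbol stood for a gene (18193 genes, 14007 tested). No 2 arrays were identical (0 pairs).

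limma 3.58.1 (R 4.3.3) fitted group means on all 13 arrays with eBayes, whose prior followed the mean signal (8.88 degrees of freedom). Two-sided p-values were adjusted by Benjamini-Hochberg over the probe sets of each contrast, and the script was tested on simulated data. Precision is limited by the array number. Alternatives were other scalings, constants, filters, variance priors, weights, blocks, an actin covariate, omitted arrays and the median over a gene's probe sets.

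Named genes were the 12 largest rises and falls, up to 4 called members per list, fixed markers, 5 baseline genes per direction and 5 genes per direction opposed in the sort. Other list members are named only to complete a list or a marker set and were chosen after their values were seen. The comparison, lists and rule were chosen with earlier results of these data known. Samples with the same number in both groups did not deviate together (correlation of deviations -0.0204), so they were not treated as pairs.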

Additional observations from a re-analysis of the deposited data

How the results depend on the processing

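Of the 4160 called probe sets, higher and lower counts of 1871 and 2289 became 587 and 4153 with arrays centred on their medians, 1001 and 1524 with hybridisation run as a random block (correlation 0.252), 866 and 651 with the actin ratio as a covariate, and 3951 and 3469 without Stella-positive day 7 arrays 3 and 4, an alternative chosen after seeing the data. Leaving out 1 array gave 538 to 1688 higher and 960 to 2161 lower, the highest without Stella-negative ESC array 3. With the replicate number as a block, without evidence of pairing, 1995 and 1953 were called. Other constants, quantile normalization, no filter, a constant prior, array weights and the 4 arrays alone left both counts within 1.5 times. Between the ESC baselines the counts of 281 higher and 328 lower became 41 and 66 with a constant prior, 935 and 1034 with array weights, 16 and 27 with the random block, 536 and 690 with the actin covariate, 866 and 1065 without the 2 Stella-positive day 7 arrays and 16 to 243 and 28 to 281 with 1 array left out. The lower count there was 82 with median centring and 212 with no filter. For the sort, 2564 higher and 2362 lower became 837 to 1255 and 361 to 565 with either Stella-negative array left out, and 722 were lower with median centring. Among the 137 named genes, some called in neither fit changed sign, for example 4 with median centring and 4 with quantile normalization. Of those called in the main fit or the alternative, 5 turned direction, each with the actin covariate: Bnip3 (0.365), C1qb (-0.457), Ldha (0.206), Nid2 (0.351) and Sall2 (-0.127). That covariate also ended 57 calls; omitting day 7 array 1, day 7 array 2, unsorted ESC array 1 or unsorted ESC array 2 ended 46, 35, 21 and 45. The causes were not tested. The actin ratio nearly coincides with the groups, and dim genes have differences that depend on the added constant.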
